A study of Mus musculus with 12 samples.

Results

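The genes examined here are 10 genes of germinal centre B cells, namely Bcl6, Mef2b, Mybl1, S1pr2, Gna13, Rgs13, Gcsam, Efnb1, Basp1 and Nuggc. They were chosen by name, as the rows of the deposited expression table that carry these symbols, and all 10 were found among its 36175 genes. The values of all 10 reached 1 or more throughout, which placed them among the 12590 genes tested. RNA-seq was carried out on B cells of the Peyer's patches (PP), the lymphoid follicles of the small intestine, from 6 sham controls and 6 stroke mice, with 1 library per mouse. All animals were male C57BL/6JHsd mice of 10 to 12 weeks, and the tissue was taken 18 h after surgery. Stroke mice had the middle cerebral artery closed with a filament for 1 h. In sham controls the filament was placed in the common carotid artery and withdrawn at once, so both groups had been anaesthetised, operated on and given analgesics. B cells were enriched with a magnetic kit and then with CD45 beads. No purification step separated germinal centre from follicular B cells, so each value is an average over all B cells of a preparation, in which fewer cells of a type and less RNA per cell cannot be told apart.

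Germinal centres are the sites within B cell follicles where activated B cells divide, mutate their immunoglobulin genes and are selected with the help of T cells. In PP they are present without immunization, because the gut content stimulates these follicles continuously. The transcriptional repressor BCL6 holds B cells in the germinal centre state, and signals through the receptor S1PR2 and the G protein subunit Gα13 keep the cells together in the centre of the follicle.

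The positions of the genes are given on GRCm38, the build named in the submitters' processing notes, from GENCODE mouse release 21. All 10 are annotated as protein-coding, and each value covers the transcripts of the whole gene. The transcription factor genes are Bcl6 at chr16:23965052-23988852 on the minus strand, Mef2b at chr8:70139711-70167488 on the plus strand and Mybl1 at chr1:9667415-9700209 on the minus strand. The genes of migration and cell contact are S1pr2 at chr9:20962361-20976781 (minus), Gna13 at chr11:109362831-109401369 (plus), Rgs13 at chr1:144138654-144177372 (minus), Gcsam at chr16:45610380-45622867 (plus) and Efnb1 at chrX:99136130-99148991 (plus). Basp1 lies at chr15:25363277-25413764 on the minus strand and Nuggc at chr14:65598546-65648531 on the plus strand. Mef2b overlaps Borcs8 on the same strand, Gna13 overlaps the antisense gene Gm11696, and Bcl6 overlaps Gm37419 on the opposite strand. Whether the quantification used strand is not given in the sources used here, so reads from such overlaps cannot be told apart.

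RefSeq promoters (GRCm38.p6) were matched for 8 of the 10 genes by symbol, as 9 promoters, and the 250 bases before each start were searched. Nuggc and Mybl1 have no entry. The promoters of Bcl6 are shown because BCL6 is known to bind its own gene, and those of Mef2b and Gcsam because these genes varied most closely together among the 10. All are written 5′ to 3′ on the strand of the gene, and capitals mark matches to TTCNNNGAA, a core pattern that BCL6 and STAT proteins are known to bind. The promoter of the first Bcl6 start is chr16:23988853-23989102 and that of the second chr16:23981284-23981533, both on the minus strand. The Mef2b promoter is chr8:70152511-70152760 and the Gcsam promoter chr16:45610190-45610439, both on the plus strand.
Bcl6, first start: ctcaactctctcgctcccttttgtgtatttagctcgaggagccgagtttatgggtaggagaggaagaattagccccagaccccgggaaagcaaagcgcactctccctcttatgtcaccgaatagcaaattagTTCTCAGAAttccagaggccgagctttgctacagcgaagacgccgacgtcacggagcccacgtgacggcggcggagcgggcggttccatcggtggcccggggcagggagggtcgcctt
Bcl6, second start: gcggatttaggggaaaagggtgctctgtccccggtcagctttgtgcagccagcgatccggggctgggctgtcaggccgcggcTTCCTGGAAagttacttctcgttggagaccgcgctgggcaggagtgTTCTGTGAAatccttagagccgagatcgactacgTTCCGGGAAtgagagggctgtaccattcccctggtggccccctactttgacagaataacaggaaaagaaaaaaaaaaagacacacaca
Mef2b: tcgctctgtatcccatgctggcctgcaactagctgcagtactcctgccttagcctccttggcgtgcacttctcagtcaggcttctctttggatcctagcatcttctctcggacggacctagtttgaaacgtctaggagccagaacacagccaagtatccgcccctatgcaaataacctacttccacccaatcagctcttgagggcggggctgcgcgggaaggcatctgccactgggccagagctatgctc
Gcsam: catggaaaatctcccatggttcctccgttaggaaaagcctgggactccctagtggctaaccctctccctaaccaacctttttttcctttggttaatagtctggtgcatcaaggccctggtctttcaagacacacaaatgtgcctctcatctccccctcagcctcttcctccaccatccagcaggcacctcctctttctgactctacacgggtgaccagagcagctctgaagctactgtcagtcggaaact

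The pattern TTCNNNGAA reads the same on both strands. It occurred in 2 of the 9 promoters, both of Bcl6, and in 7.02% of all 32851 promoters of this length. The first Bcl6 promoter held 1 match, TTCTCAGAA, which begins 118 bases before the start. The second held 3 matches, TTCCTGGAA at 168 bases, TTCTGTGAA at 122 bases and TTCCGGGAA at 88 bases before the start. The pattern that MEF2 proteins are known to bind, searched as CTA and TAG with any 4 bases between them and also the same on both strands, was in 0 of the 9 promoters and in 3.2% of all promoters. A match describes letters in a window and not a bound site, and a missing match says only that the letters are not in these 250 bases.

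Normalized TPM, as the deposited values are labelled, is an expression level per transcript length, so levels can be compared between genes. The column totals differed between mice. The total was 559570 in sham control 6, 1404340 in sham control 1 and 1386994 in sham control 2. The other mice lay between 804983 and 1020759. Without read counts the depth behind each value is unknown. Stroke mouse 6 had 30060 genes above 0, and the other mice had 20626 to 23947. The 7 B cell markers, such as Ms4a1, were at summed levels between 1587 and 2736, with stroke mouse 5 lowest. Intestinal epithelial markers were also present. Their 10 genes had summed levels from 36.2 to 1832 in sham controls and from 33.0 to 895 in stroke mice, with sham controls 1 and 2 highest. Fas, a death receptor that marks germinal centre B cells, had a mean level of 22.7 ± 8.61 among sham controls and 21.9 ± 6.68 among stroke mice (SD, n = 6 each).

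The main comparison asked whether the 10 genes differed between PP B cells of stroke mice and sham controls. None of the 10 differed by more than the spread between mice. Their log2 differences, on the log2(value + 0.5) scale, were tested with limma across all genes. Of the 10 genes, 0 had an unadjusted p under 0.05, beside 6.12% of all genes tested (4.42% higher and 1.69% lower in stroke mice), and 0 had an adjusted p under 0.05, beside 0% of all genes tested. The ranges of the groups overlapped for all 10 genes, whereas 0.437% of all genes tested had groups that did not overlap (0.349% higher and 0.0874% lower in stroke mice). The difference was positive for 7 genes and negative for 3, and its median was 0.13 for the 10 genes and 0.0069 for all genes tested, of which 51.4% were above 0. Their adjusted p ranged from 0.844 to 0.992 (limma, Benjamini-Hochberg), with 0.468 as the smallest value among all genes. Over the 10 genes, the 95% confidence intervals of limma reached from 0.501-fold, the lower limit of Efnb1, to 1.98-fold, the upper limit of Basp1. Each interval holds the group differences of its gene that are compatible with these 12 mice, and the widths differed between genes.

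**Figure D1:**
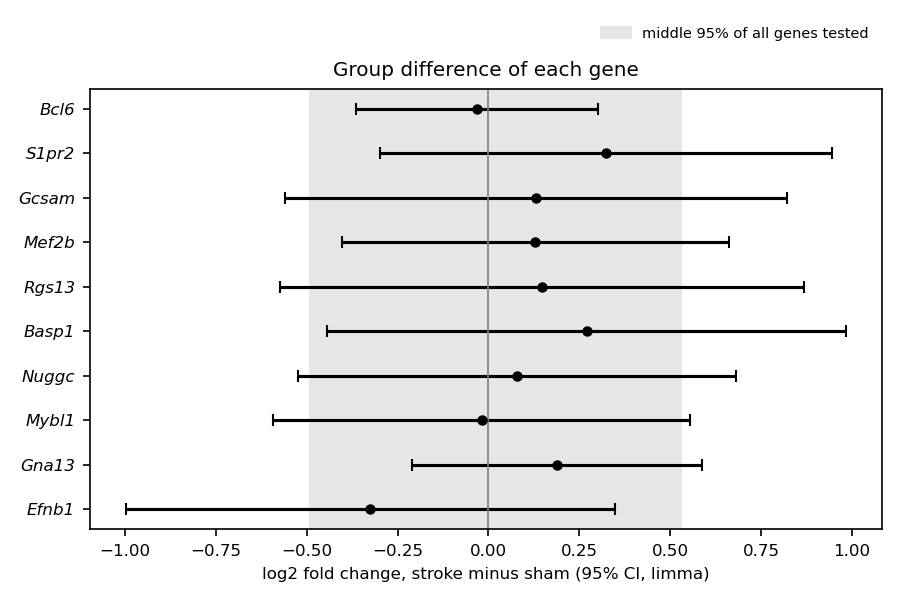
Log2 fold change of each of the 10 genes, stroke minus sham, as points with 95% confidence intervals from limma, with the genes on the vertical axis. The grey band holds the middle 95% of all 12590 genes tested. All 10 intervals include 0, and the points lie between -0.32 for Efnb1 and 0.32 for S1pr2.

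Among the transcription factors, Bcl6 was nearly level between the groups. Its normalized TPM ran from 33.3 through a median of 39.3 to 57.6 in sham controls and from 33.3 through 39.7 to 54.4 in stroke mice. The lowest mice of both groups coincided, and sham control 5 and stroke mouse 3 were the highest. Its mean level was 42.2 ± 9.01 among sham controls and 41.0 ± 7.15 among stroke mice (SD, n = 6 each). The log2 difference was -0.031 (SE 0.155, adjusted p = 0.971, limma), which is 0.979-fold with a 95% interval of 0.777 to 1.23, the narrowest of the 10 genes. Rescaling each mouse to the same total turned this difference to 0.094 and that of Mybl1 to 0.11, while the median of all genes tested moved to 0.127.

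Mef2b encodes a transcription factor that is known to activate Bcl6 in germinal centre B cells. Its levels were 35.2, 41.9 and 76.2 (lowest, median and highest) in sham controls and 35.3, 48.0 and 86.3 in stroke mice. The lowest values nearly coincided here too, and the highest mice were again sham control 5 and stroke mouse 3. The log2 difference was 0.13 (SE 0.247, adjusted p = 0.920, limma). Without stroke mouse 3 it was -0.023. Borcs8, which shares its locus and strand, had levels from 35.9 in stroke mouse 5 to 87.7 in stroke mouse 6, and its deviations from the group means followed those of Mef2b only loosely (Pearson's r = 0.25 across the 12 mice).

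Mybl1 encodes A-MYB, a transcription factor of dividing germinal centre B cells. Its lowest, median and highest levels were 48.3, 57.0 and 123 in sham controls and 44.6, 67.7 and 91.4 in stroke mice. The sham controls fell apart, with sham controls 5 and 6 at 123 and 111 and the other 4 between 48.3 and 61.6, whereas the stroke mice were spread evenly. Between the groups the log2 difference was -0.019 (SE 0.266, adjusted p = 0.992, limma), and leaving out each mouse in turn gave values between -0.12 and 0.15.

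S1pr2 had the highest positive difference of the 10 genes. It encodes a sphingosine-1-phosphate receptor that halts migration and so confines B cells to the germinal centre. Its levels were 9.07, 13.6 and 23.3 in sham controls and 9.13, 15.9 and 29.3 in stroke mice. Stroke mice 3 and 6, at 29.3 and 25.1, lay above every sham control, and the other 4 stroke mice lay within the range of the sham controls. The mean level was 14.2 ± 5.40 among sham controls and 18.2 ± 7.55 among stroke mice (SD, n = 6 each). The log2 difference of 0.32 (SE 0.288), with 5 of 6 stroke mice above the sham mean on the log2 scale, had an adjusted p of 0.844 in limma. By the exact permutation test (two-sided, every assignment of mice to groups) p was 0.316, and leaving out each mouse in turn gave log2 differences between 0.17 and 0.49.

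Gna13 encodes the Gα13 subunit through which S1PR2 acts. Its lowest, median and highest levels were 54.6, 101 and 126 in sham controls and 98.6, 103 and 131 in stroke mice. All but 1 of the sham controls were at 89.0 or more, and sham control 6 alone stood at 54.6. The log2 difference was 0.19 (SE 0.185, adjusted p = 0.859, limma), and without sham control 6 it was 0.029. Its antisense neighbour limits how far these reads can be assigned.

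Rgs13 encodes a regulator that dampens chemokine receptor signals through G proteins. Its levels were 7.86, 23.5 and 35.7 in sham controls and 15.3, 21.9 and 34.8 in stroke mice. The range was wider in sham controls, and the lowest mouse was again sham control 6. Its mean was 23.2 ± 11.6 among sham controls and 23.4 ± 6.48 among stroke mice (SD, n = 6 each), with a log2 difference of 0.15 (SE 0.334, adjusted p = 0.935, limma). Without sham control 6 the difference was -0.12.

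Gcsam encodes an adaptor protein of germinal centre B cells that is known to act on motility and B cell receptor signalling. Its levels were 15.5, 22.5 and 47.1 in sham controls and 15.4, 25.6 and 52.0 in stroke mice. As for Mef2b, the lowest levels were alike in both groups, and sham control 5 and stroke mouse 3 were the highest. The log2 difference was 0.13 (SE 0.320, adjusted p = 0.938, limma), and it was -0.057 without stroke mouse 3.

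Efnb1 had the most negative difference of the 10. It encodes ephrin-B1, a membrane ligand through which germinal centre B cells contact T cells. Its levels were 6.27, 14.3 and 26.8 in sham controls and 5.77, 10.5 and 15.7 in stroke mice. The highest sham controls, mice 1, 2 and 5, lay above every stroke mouse, and the remaining 3 lay within the range of the stroke mice. The mean level was 14.6 ± 7.33 among sham controls and 10.9 ± 3.32 among stroke mice (SD, n = 6 each). The log2 difference of -0.32 (SE 0.312) had an adjusted p of 0.855 in limma, and the exact two-sided permutation p was 0.383. Without sham control 2 it was -0.12, and without sham controls 1 and 2 it was 0.0094. These 2 mice also had the highest summed epithelial markers, at 1820 and 1832, and the highest column totals, at 1404340 and 1386994. Whether either had a part in their Efnb1 levels was not tested.

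Basp1 and Nuggc belong to neither group. Basp1 encodes a membrane-bound protein best known from neurons, and its levels were 26.2, 70.0 and 126 in sham controls and 53.2, 79.3 and 132 in stroke mice. The highest level was 5.03 times the lowest, the widest span of the 10 genes. Its log2 difference was 0.27 (SE 0.331, adjusted p = 0.876, limma), and 0.0082 without sham control 6, the mouse of the lowest level. Nuggc encodes a nuclear GTPase of germinal centre B cells. Its levels were 23.9, 26.8 and 70.6 in sham controls and 24.7, 33.9 and 61.2 in stroke mice. Here 4 sham controls lay close together between 23.9 and 26.8, below sham controls 2 and 5. Stroke minus sham gave a log2 difference of 0.079 (SE 0.279, adjusted p = 0.959, limma), and -0.077 without stroke mouse 3.

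**Figure D2:**
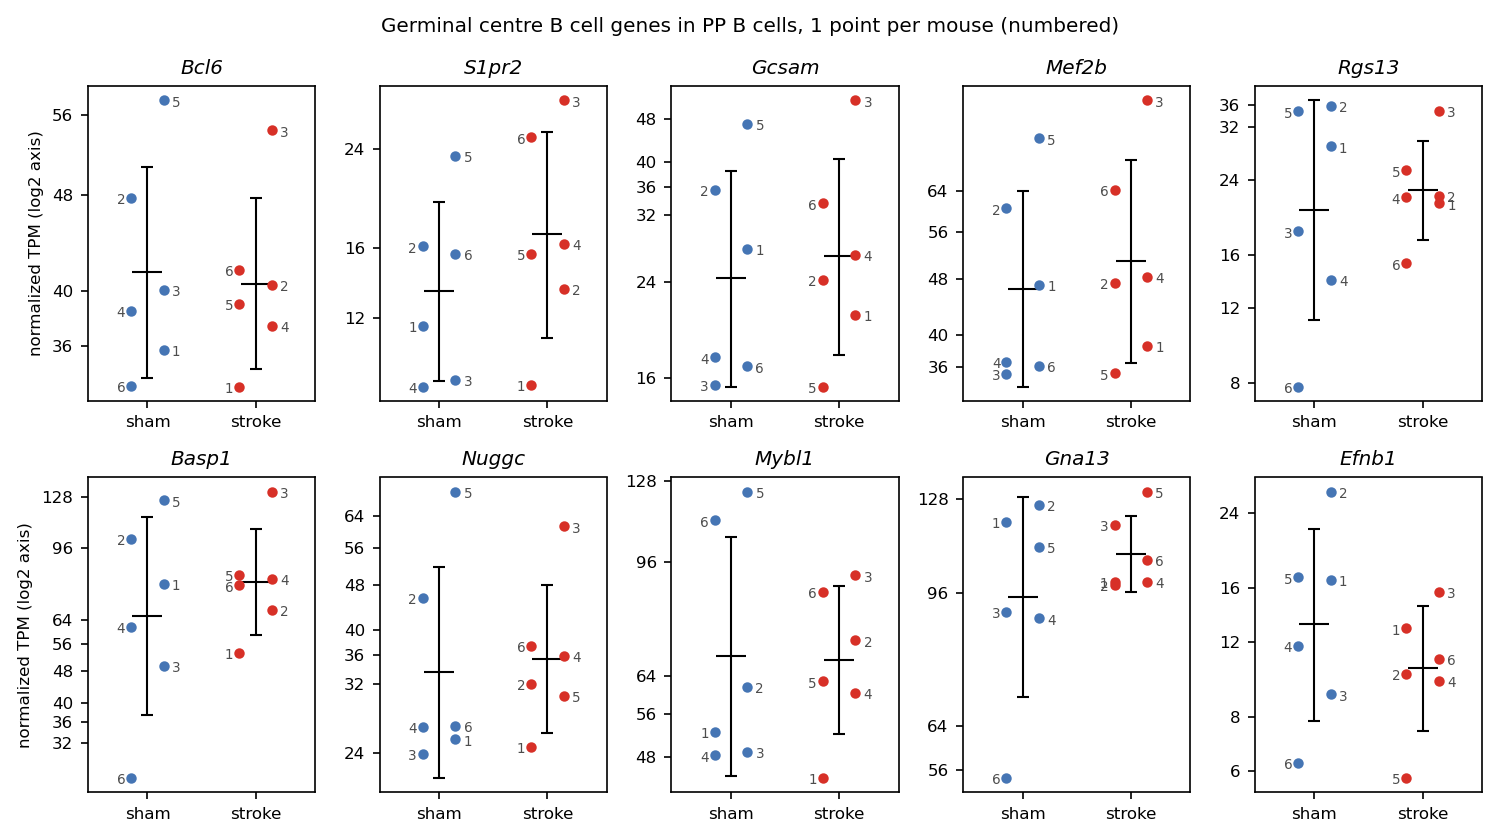
Normalized TPM of the 10 genes on a log2 axis, with 1 numbered point per mouse, sham controls in blue and stroke mice in red. Horizontal bars are means of log2(value + 0.5) and whiskers are 1 SD (n = 6). The groups overlap for all 10 genes, with sham control 5 and stroke mouse 3 at or near the top in most of them.

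By mean level over the 12 mice, the order was Gna13 at 104, Basp1 at 78.1, Mybl1 at 71.9, Mef2b at 51.0, Bcl6 at 41.6, Nuggc at 36.7, Gcsam at 27.8, Rgs13 at 23.3, S1pr2 at 16.2 and Efnb1 at 12.7. The confinement receptor S1pr2 was thus among the lowest and its G protein the highest. Of the 9 pairs of neighbours in this order, Mybl1 over Mef2b alone held in 12 of 12 mice. Nuggc was above Gcsam in 11 mice, and Gna13 above Basp1, Bcl6 above Nuggc and Rgs13 above S1pr2 in 10 each. The closest neighbours were Basp1 and Mybl1 (in this order in 9 mice), Mef2b and Bcl6 (9), S1pr2 and Efnb1 (8) and Gcsam and Rgs13 (7), and the difference between neighbours was not tested.

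The second question was how the genes varied beside the group difference. All but 1 of the 10 genes varied more between mice of a group than the median gene. The median residual SD, the spread of log2 values around the group means, was 0.543 on the log2 scale for the 10 genes and 0.309 for all genes tested, and for 7 of the 10 it was above the 80th percentile. Bcl6 varied least, with a residual SD at percentile 36.6 of all genes, and Rgs13 varied most, at percentile 92.0. Within its own group, sham control 5 had the highest level in 7 of the 10 genes and stroke mouse 3 in 9 of the 10. Gna13, which was highest in stroke mouse 5, was the exception among stroke mice. Sham control 2 was the highest sham control for the remaining 3 genes, Rgs13, Gna13 and Efnb1.

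The low mice were less uniform. Sham controls 3 and 4 were below the group mean in all 10 genes. Sham control 6, which also had the lowest column total, was lowest of its group in 5 genes. It was below the group mean in 8, but above it for S1pr2 and Mybl1. Averaged over the 10 genes, the deviation from the group mean was 0.70 on the log2 scale in sham control 5 and 0.45 in sham control 2, and -0.50 in sham control 6. In stroke mice it was 0.61 in mouse 3 and -0.35 in mouse 1, and the other 4 lay between -0.21 and 0.11. Each group thus held mice far above and far below its mean, and single mice moved the group comparison. The median log2 difference of the 10 genes was 0.28 without sham control 5 and -0.04 without stroke mouse 3.

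**Figure D3:**
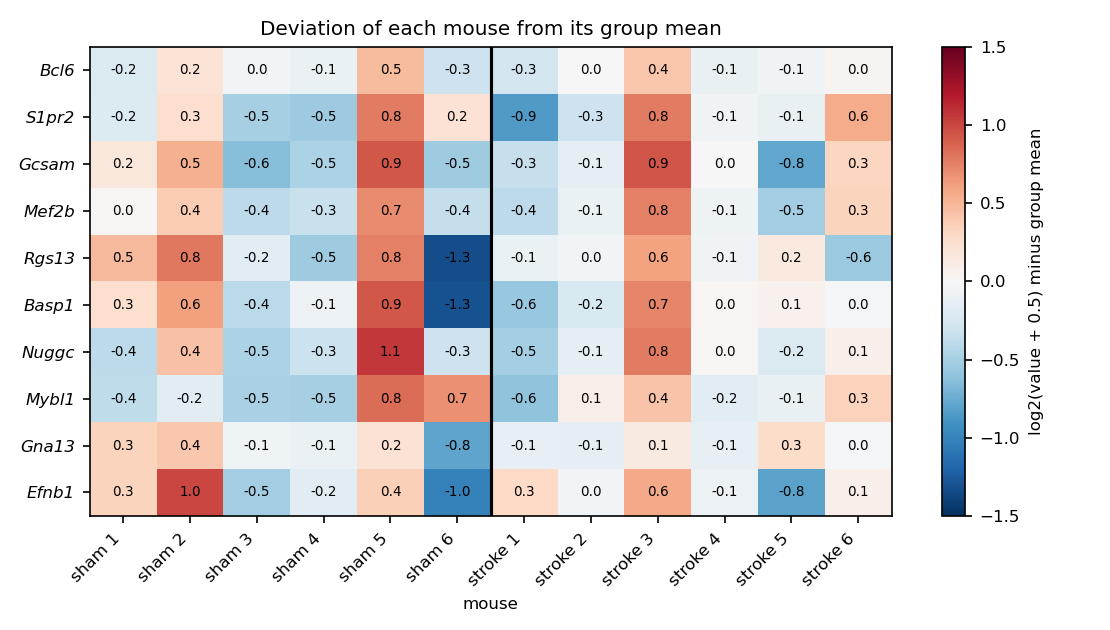
Deviation of each mouse (columns) from the mean of its group on the log2(value + 0.5) scale, for the 10 genes (rows), in red above the mean and in blue below it, with the value to 1 decimal. Sham control 5 and stroke mouse 3 are above the mean of their group in all 10 genes, and sham controls 3 and 4 in 0.

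Most of the 10 genes varied together from mouse to mouse. Across the 12 mice, with the group means removed, the 45 pairs of the 10 genes had a median Pearson's r of 0.675, ranging from -0.23 to 0.99, and 35 pairs were above 0.5. The mean r was 0.615 over these pairs and 0.0284 over all pairs of genes tested. These correlations are descriptions across 12 mice that share their libraries and the scaling of each library, and they carry no p. The most alike were Gcsam and Mef2b at 0.99, whose promoters are shown above, followed by Bcl6 and Nuggc at 0.93, Mef2b and Nuggc at 0.91, and Rgs13 with Gna13 and with Basp1 at 0.89 each. Against the mean of the other 9 genes, r was 0.939 for Mef2b, 0.926 for Gcsam, 0.921 for Nuggc, 0.897 for Bcl6 and 0.882 for Basp1.

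Mybl1 stood least close, with r = 0.392 against the mean of the others. The 3 pairs below 0 all held Mybl1, with Rgs13 at -0.04, Efnb1 at -0.06 and Gna13 at -0.23. These values rested on sham control 6, in which Mybl1 was high while Rgs13, Gna13 and Efnb1 were at their lowest among sham controls. Without this mouse, 0 pairs were below 0, and the median over the pairs was 0.777. The r of Mybl1 was then 0.817, but against a mean of the others not scaled to equal spread. The value of 0.392 used genes scaled to equal spread, so these values are not the same measure. The likeness rested in part on the highest mice too. Without sham control 5 and stroke mouse 3 the median r was 0.516 and the lowest -0.56.

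The genes outside the 10 that followed them most closely were then ranked. By r with the mean of the 10 genes, the 10 most alike of 12580 other genes were Cdc6 at 0.983, Birc5 at 0.972, Tpx2 at 0.966, Lig1, Dnmt1 and Smco4 at 0.965 each, Cdc20 at 0.963, Nusap1 at 0.956, Aurka at 0.953 and Mcm7 at 0.951. Cdc6, Lig1 and Mcm7 act in DNA replication, Dnmt1 maintains DNA methylation behind the fork, and Birc5, Tpx2, Cdc20, Nusap1 and Aurka act in mitosis. None of these had an unadjusted p under 0.05 between the groups in limma. Fas followed at rank 418, with r = 0.697. Averaged over 12 proliferation genes, the deviation from the group mean was 0.66 in sham control 5, 0.64 in stroke mouse 3 and 0.35 in sham control 2, the same mice in which the 10 genes were high. It was -0.36 in each of sham controls 3 and 6 and -0.37 in stroke mouse 1, where the 10 genes were low. Of the 12 proliferation genes, 0 had an unadjusted p under 0.05 between the groups, beside 6.12% of all genes tested. Their median log2 difference was 0.058, and it was 0.21 without sham control 5 and -0.055 without stroke mouse 3.

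**Figure D4:**
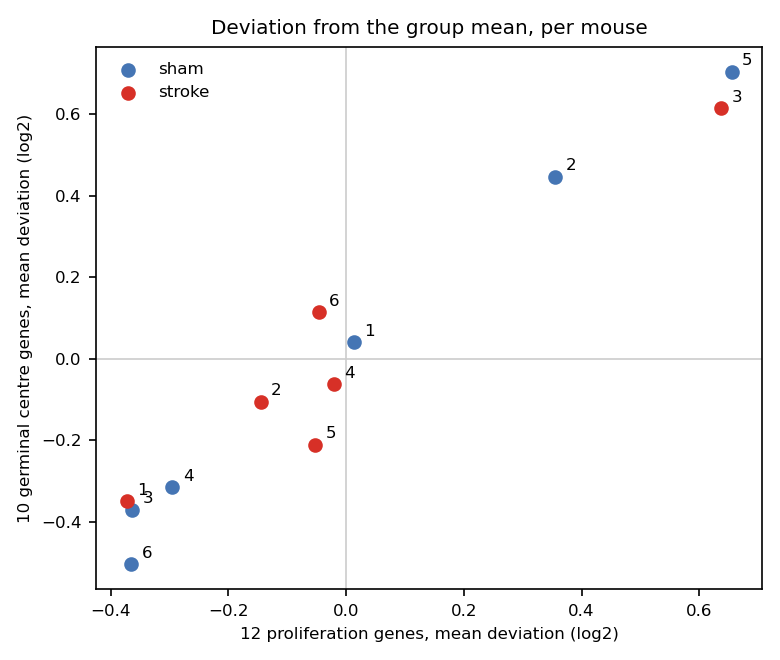
Mean deviation of the 10 germinal centre genes from the group mean (vertical axis, log2) against that of 12 proliferation genes (horizontal axis, log2), with 1 numbered point per mouse, sham controls in blue and stroke mice in red. Both measures were highest in sham control 5 and stroke mouse 3, and both were below 0 in sham controls 3, 4 and 6.

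Further lists cover the programmes around the 10 genes, and a gene is called here at an unadjusted p under 0.05. Among all genes tested 4.42% were called higher and 1.69% lower, so a list of about 10 genes with 1 call is near this background. Of 10 other genes of germinal centre B cells, 1 was called higher and 0 lower in stroke mice, with a median log2 difference of -0.04, which was 0.11 without sham control 5. The higher gene was Klhl6, which supports B cell receptor signalling in germinal centre B cells, at 155 ± 19.6 in sham controls and 250 ± 123 in stroke mice (SD, n = 6, log2 difference 0.59, adjusted p = 0.772, limma). Stroke mouse 5 stood apart at 494 and the other 5 stroke mice lay between 178 and 257, and without that mouse the log2 difference was 0.37. The call was lost in 1 of 28 alternatives, the epithelial marker score as a covariate. Irf8, at the highest level of that list, is a transcription factor of B cell development. Of 10 genes of the dark zone, where germinal centre B cells divide, 1 was higher and 0 were lower, with a median of 0.16. Not all of these are genes of cell division. Without sham control 5 the median was 0.31 and there were 3 higher genes, beside 4.35% of all genes. The median was 0.064 without sham control 6 and 0.072 without stroke mouse 3, with 1 higher gene in each. The called gene was Tcf3, the transcription factor E2A, at a mean of 105 in sham controls and 141 in stroke mice (log2 difference 0.41, SE 0.113, adjusted p = 0.716, limma). Of 14 light zone genes, which mark cells under selection by T cells, 0 were higher and 1 was lower, with a median of -0.15, and this was the activation marker Cd83 with a log2 difference of -0.69 (adjusted p = 0.791, limma). The Cd83 call was lost in 17 of 28 alternatives, and without stroke mouse 5 its difference was -0.39 and the median of the list -0.041. After adjustment 0 genes of any list described here were called, with 0.716 as their smallest adjusted p (limma).

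Genes of confinement and migration surround S1pr2 and Gna13. Of 11 tested, 0 were higher and 3 were lower, beside 4.42% and 1.69% of all genes tested, with a median log2 difference of -0.15. This median was -0.30 without sham control 6, -0.060 without sham control 2 and -0.090 without stroke mouse 5. S1pr1, the receptor that draws B cells out of the tissue and that BCL6 is known to repress, was at 74.9, 96.7, 84.2, 82.9, 54.5 and 45.3 in sham controls 1 to 6 and at 70.3, 51.1, 33.5, 41.4, 30.7 and 41.4 in stroke mice 1 to 6. All 6 stroke mice were below the sham mean, but sham controls 5 and 6 lay within the range of the stroke mice. The log2 difference was -0.71 (SE 0.226, adjusted p = 0.716, limma). Gpr183, also known to be repressed by BCL6, is a receptor that guides B cells to the outer follicle. It was at 88.3 ± 16.3 in sham controls and 62.2 ± 13.7 in stroke mice (SD, n = 6, log2 difference -0.51, adjusted p = 0.748, limma), and it lost its call when each mouse was rescaled to the same total (log2 difference -0.39). The third was Cxcr5, outside the naming rule and named after its values were seen, with a log2 difference of -0.56, which was -0.32 without stroke mouse 5, and its call was lost in 14 of 28 alternatives. The number of lower genes in the list depended on the setting, with 6 without sham control 6, where 9.18% of all genes were lower, and 1 after rescaling to the same total, where 0.548% were. Without sham controls 1 and 2, 2 genes of the list were higher and 2 lower, beside 3.5% and 1.1% of all genes. Arhgef1, an exchange factor that acts downstream of Gα13, was at the highest level of the list.

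Of 11 genes that BCL6 is known to repress, 0 were higher and 2 were lower (all genes, 4.42% and 1.69%), the same S1pr1 and Gpr183, with a median log2 difference of 0.04, which was -0.15 without sham control 6. Bcl6 itself was at -0.031. Among 9 genes of contact with T helper cells, 1 was higher and 1 lower (all genes, 4.42% and 1.69%). Their median log2 difference was -0.21, and it was -0.10 without stroke mouse 5. Btla, an inhibitory receptor, was higher (log2 difference 0.58, adjusted p = 0.716, limma). Pdcd1lg2, a ligand of the receptor PD-1, was lower (log2 difference -0.54, adjusted p = 0.789, limma). Btla was at 398 in stroke mouse 5 and between 176 and 243 in the other stroke mice, and without that mouse its log2 difference was 0.41. The Pdcd1lg2 call was lost in 4 of 28 alternatives, both rescalings to the same total, the epithelial covariate and the fit without sham control 3, and without stroke mouse 5 its difference was -0.36. Of 10 follicular B cell genes that are low in germinal centre B cells, 0 were higher and 3 were lower (all genes, 4.42% and 1.69%). These were S1pr1, Gpr183 and Fcer2a, the last named after its values were seen. The median of this list was -0.28, and 9 of its 10 genes had a negative difference. Stroke mouse 5 stood apart, with a summed level of 630 beside 1094 to 1522 in the other stroke mice, and it also had the lowest B cell markers. Without this mouse the median was -0.21, 8 of the 10 differences were negative and 3 genes were lower, beside 1.26% of all genes. Fcer2a was at 48.6 in stroke mouse 5 and between 177 and 234 in the others, and its log2 difference was -0.72 with this mouse and -0.36 without it. Its call was lost in 16 of 28 alternatives.

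**Figure D5:**
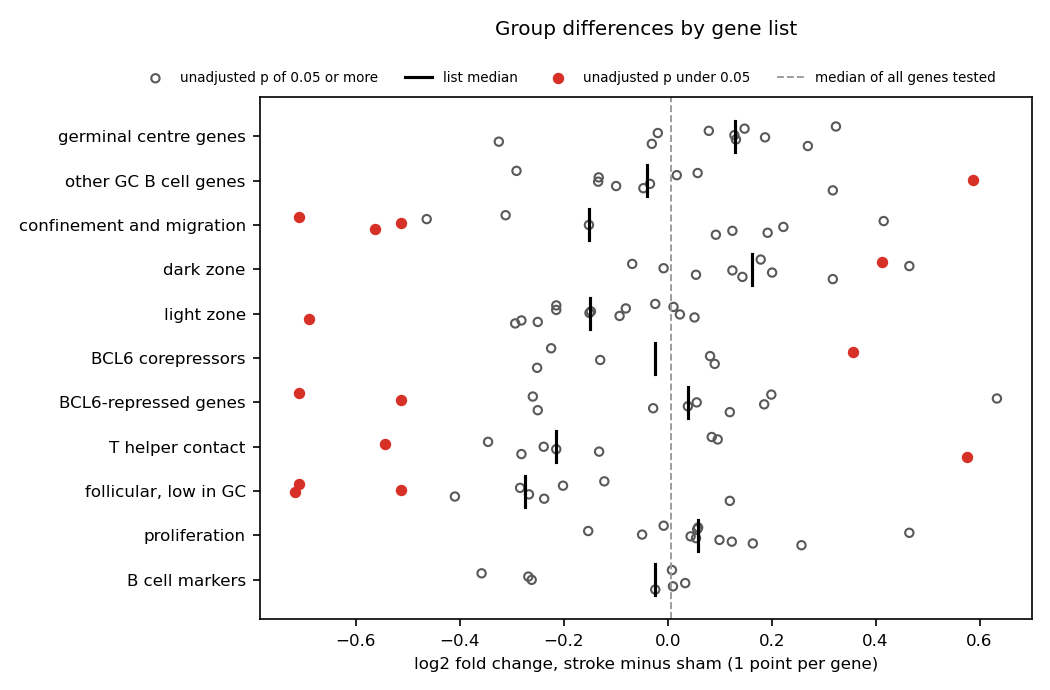
Log2 fold change, stroke minus sham, of each gene (points) in 11 gene lists (rows), with the median of each list as a black bar and the median of all genes tested as a dashed line. Filled red points have an unadjusted p under 0.05 in limma. The 10 germinal centre genes hold 0 such points, and their median of 0.13 lies between that of the follicular list, at -0.28, and that of the dark zone genes, at 0.16.

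Markers of other cells of the PP were measured beside the 10 genes, with 4.42% of all genes tested called higher and 1.69% lower. Of the 12 genes of T cells, 7 were tested and 2 were higher (all genes, 4.42%), Cd200 (log2 difference 0.94) and Tox2 (0.60), which B cells also express. The summed level of the 12 genes was 72.8 to 133 in sham controls and 107 to 291 in stroke mice, with stroke mouse 5 highest. Cd200 made up 238 of the 291 in that mouse. There Cd3e was at 4.26 and Trac at 2.16, below their sham means of 13.4 and 7.75. Cd3d was at 23.6 and Sh2d1a at 4.55, above their sham means of 18.7 and 2.99. Without Cd200 the sums overlapped, at 41.0 to 77.1 in sham controls and 40.5 to 92.0 in stroke mice. Of the 7 genes of follicular dendritic cells, 3 were tested and 1 was lower (all genes, 1.69%), Cr2 (log2 difference -0.83), which follicular B cells also express. Cr2 was at 47.1 in stroke mouse 5 and between 169 and 213 in the other stroke mice, and without that mouse the log2 difference was -0.51. Its call was lost after rescaling to the same total (log2 difference -0.70). Of 6 plasma cell genes tested, 0 were called, with a median of -0.26. Without sham control 6, where 9.18% of all genes were lower, 3 of them were lower with a median of -0.45, and the median was -0.11 without sham control 1, -0.14 without sham control 2 and -0.12 without stroke mouse 5. The epithelial list had a median of -1.64 over its 5 genes tested, with 0 called, but after leaving out sham control 6, the lower genes numbered 5 of 6 tested (median -2.38, all genes 9.18%), and without sham controls 1 and 2 the median was -0.48. With quality weights 3 of the 5 were lower, beside 5.58% of all genes, and with the replicate block 2, beside 3.21%. Of 6 myeloid genes tested 0 were called. Of the 6 neutrophil genes, 4 were at 0 in at least 1 mouse. The highest mice of the germinal centre genes differed in epithelial markers, since the summed level was 563 in sham control 5 and 46.4 in stroke mouse 3. With the epithelial marker score as a covariate, 0 of the 10 genes were called.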

How the data were processed

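PP B cells of 6 sham controls and 6 stroke mice were measured by bulk RNA-seq. The authors trimmed reads with Trimmomatic 0.39, quantified them with kallisto 0.48.0 and used sleuth 0.30.0 in R 4.1.2, as listed in the submitters' processing notes. Per gene, the deposited file holds an expression signal labelled as normalized TPM. Their column totals differ, so they were treated as a signal of unknown depth, whereas the design had assumed plain TPM. The test is that for TPM.

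Genes at 1 or more throughout (12590) were tested as log2(value + 0.5) with limma 3.58.1 in R 4.3.3, two-sided and without a block, with Benjamini-Hochberg adjustment. Fold changes on this scale understate changes of low genes. Single values were compared with exact permutation tests over every assignment of mice to groups, for which the smallest p is 0.0022. Calls use an unadjusted or adjusted p under 0.05. Likeness is Pearson's r of log2 values centred on the group means. Tables and figures were made with Python 3.11.15, pandas 2.3.3 and matplotlib 3.10.9. The limma step was tested on simulated data.

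The 10 genes and all lists were chosen with earlier results of these data known. Also named are, from each list, the 2 genes of smallest p in each direction among those at an unadjusted p under 0.05 and the gene of highest level, and the 10 genes most like the mean of the 10 genes. Alternatives were other pseudocounts (0.1 and 1), filters and scalings, a replicate block, quality weights, an intensity trend and leaving out each mouse. Others, chosen after seeing the data, left out sham controls 1 and 2 or mice 6 of both groups, took an epithelial score as a covariate, or set values relative to 7 B cell markers. Positions come from GENCODE, in which 35869 of 36175 identifiers matched. Reported values use all 12 mice. Some genes of the naming rule are not reported here.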

Additional observations from a re-analysis of the deposited data

How the results depend on the processing

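Of the 10 germinal centre genes, 0 were called in either direction under each alternative run, leaving out each mouse included. The smallest unadjusted p of a gene was 0.0706 (limma, Gna13 without sham controls 1 and 2). Signs near 0 changed. After rescaling to the same total, Bcl6 was at 0.094 and Mybl1 at 0.11, without immunoglobulin genes at 0.091 and 0.10, and relative to the 7 B cell markers at 0.092 and 0.10. These settings moved the median of all genes to between 0.124 and 0.130. Mybl1 was at 0.16 with quality weights. Efnb1 was at 0.0094 without sham controls 1 and 2. Without mice 6 of both groups, Gcsam was at -0.038, Mef2b at -0.011, Rgs13 at -0.0061 and Mybl1 at 0.050. Leaving out each mouse in turn gave log2 differences of -0.11 to 0.063 for Bcl6, -0.023 to 0.27 for Mef2b, -0.12 to 0.15 for Mybl1, 0.17 to 0.49 for S1pr2, 0.029 to 0.27 for Gna13, -0.12 to 0.31 for Rgs13, -0.057 to 0.32 for Gcsam, -0.53 to -0.12 for Efnb1, 0.0082 to 0.46 for Basp1 and -0.077 to 0.29 for Nuggc. Over all genes, 557 were higher and 213 lower at an unadjusted p under 0.05, and leaving out each mouse gave 395 to 936 higher and 146 to 1162 lower, both highest without sham control 6, and 0 to 1 after adjustment. These counts were 1418 and 350 with no filter, 348 and 69 after rescaling to the same total, 351 and 71 without immunoglobulin genes, and 866 and 703 with quality weights. They were 378 and 327 after quantile normalization. The lower genes numbered 141 without sham controls 1 and 2, 808 without mice 6 of both groups and 130 with the epithelial covariate. The adjusted count was 1 with a filter on the mean and with one on 6 mice. A replicate block gave 770 higher and 404 lower genes, 0 after adjustment, and 0 of the 10 genes were called. Same-numbered mice had correlations of 0.0134 to 0.494 (mean 0.218, other pairs -0.0414), 4 of 6 were over 0.1, and 2 of 6 sham controls were closest to their own number. What a number marks is not given, and since not every pair was over 0.1 the mice were not treated as pairs. The cause of these shifts was not tested. Depth is unknown, which limits the low genes most.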
